A study of Mus musculus with 8 samples.

Results

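The colony-stimulating factors and their receptors were followed as 8 genes of the 23143 in the count table: the ligands Csf1 (M-CSF), Csf2 (GM-CSF) and Csf3 (G-CSF), and the receptor genes Csf1r, Csf2ra, Csf2rb, Csf2rb2 and Csf3r. They were taken by gene symbol, and all 8 symbols had a row. The samples were RAW264.7 cells, a single mouse macrophage-like tumour line, so every group shares one genotype. One library was made from untreated cells (0 min), and 7 from cells given lipopolysaccharide (LPS, the endotoxin of Gram-negative bacteria) at 100 ng/ml for 15 to 90 min in steps of 15 min or for 120 min. The labels name both total RNA and a cytoplasmic RNA fraction, and the study's text names total RNA for this time course. Ribosomal RNA was depleted before sequencing. There was 1 library per time point, so no difference below has a replicate check, and every test compares libraries, not conditions.

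Colony-stimulating factors are secreted proteins that control the production, survival and activation of myeloid cells. M-CSF acts through the receptor tyrosine kinase encoded by Csf1r, which macrophages need for survival. GM-CSF binds a specific alpha chain (Csf2ra) paired with the common beta chain (Csf2rb), which also serves interleukin 3 and interleukin 5, while the mouse has an additional beta chain, Csf2rb2, used by interleukin 3. G-CSF binds the homodimeric receptor encoded by Csf3r and is best known for driving neutrophil production. Macrophages are a known source of G-CSF and GM-CSF after contact with bacterial products.

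Total counts ranged from 100250892 in the 75 min library to 159077286 in the 120 min library. The share of counts on Rn45s, the ribosomal RNA precursor, lay between 13.0% and 20.5% in the 15, 45, 75 and 90 min libraries and between 8.18% and 9.11% in the other 4. All 7 macrophage marker rows were above 100 normalized counts in every library. Of the granulocyte markers, 3 of the 4 with a row (Elane, Mpo and S100a9) stayed under 10, and the fourth, S100a8, lay between 50.2 and 70.4. The 3 fibroblast markers had no count, the summed T cell and B cell markers did not exceed 14.2 normalized counts, and the endothelial markers summed to between 43.8 and 59.7, mostly Vwf. In bulk RNA, fewer expressing cells and less RNA per cell cannot be told apart.

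A normalized read count is the number of reads divided by a size factor for the library (the median ratio of its genes to their mean over the libraries). A negative binomial test, with the settings of the study's methods, compared each LPS library with the 0 min library, with the spread taken from all 8 libraries. A gene was called higher or lower when its log2 ratio lay beyond 0.5 with an unadjusted p under 0.05. Intervals of 95% beside ratios and levels cover the counting of reads only.

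At 0 min the receptors stood above their ligands. Levels between genes were compared as rpkm, reads per kilobase of sequence unique to the gene and per 1000000 total counts. Csf1r was by far the most abundant member with 285 rpkm (284 to 287) in the 0 min library, and stood at rank 227 of 20142 mRNA genes ordered by reads per length. Csf2ra followed with 13.5 rpkm (13 to 14), then Csf2rb with 3.24 (3.08 to 3.4), Csf3r with 1.09 (0.995 to 1.19) and Csf2rb2 with 0.316 rpkm (0.269 to 0.368). None of these receptor intervals overlapped. Among the ligands, Csf1 had 0.129 rpkm (0.102 to 0.162), Csf3 had 0.0169 rpkm (0.00348 to 0.0493) from 3 reads, and Csf2 had no read, which allows up to 0.0308 rpkm. Csf2 and Csf3 could not be ordered at this depth.

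At 120 min the order differed, mostly through the ligands. Csf3 reached 55.1 rpkm (54.1 to 56.1), second only to Csf1r at 209 rpkm (208 to 211), and went from rank 11773 to rank 1353 of the 20142 genes. Csf2 reached 2.04 rpkm (1.79 to 2.31), above Csf2rb at 1.61 rpkm (1.51 to 1.71) and Csf3r at 0.756 rpkm (0.684 to 0.833). Csf1, at 0.351 rpkm (0.309 to 0.398), was above Csf2rb2 at 0.222 rpkm (0.187 to 0.262), the reverse of their order at 0 min. Csf2ra lay at 16.5 rpkm (16 to 16.9) and kept its place above Csf2rb.

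**Figure D1:**
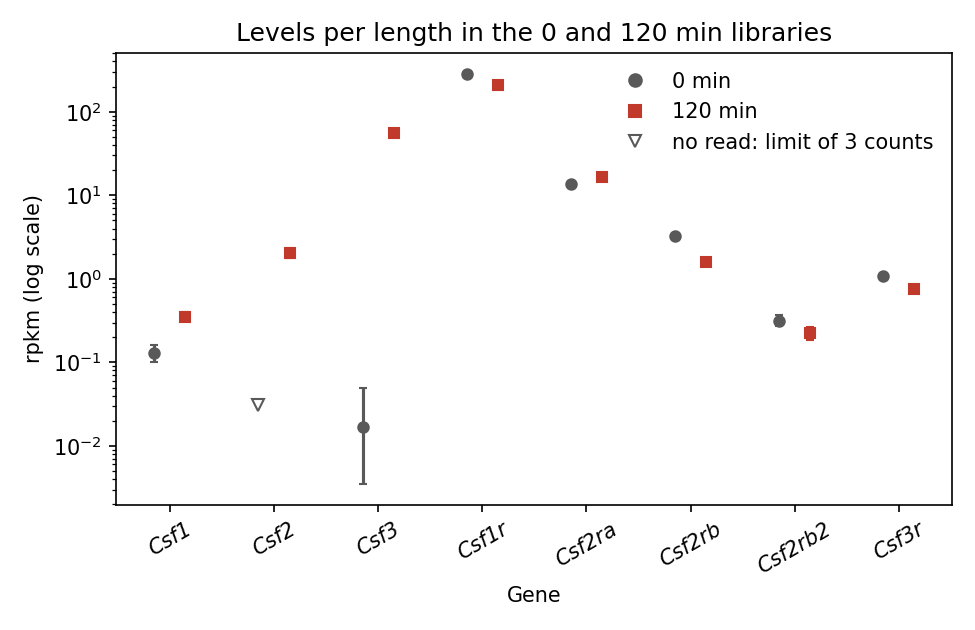
Level of each member in rpkm on a log axis in the 0 min (grey circles) and 120 min (red squares) libraries, with 95% counting intervals. The open triangle marks the 3-count limit for Csf2, which had no read at 0 min; Csf3 moved from 0.0169 to 55.1 rpkm while the 5 receptors stayed within the range of 0.222 to 285 rpkm.

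The 3′ ends of Csf2 and Csf3 held more copies of the pentamer ATTTA than those of the other 6 members. The pentamer ATTTA, the core of the AU-rich elements found in many short-lived cytokine mRNAs, was counted in the annotated 3′ UTR of the longest transcript. Csf2 held 9 copies in 317 bases, more than 92.5% of the 11270 genes with a mean of at least 10 normalized counts, and Csf3 held 6 in 669 bases, more than 84.3% of those genes. Csf1 held 4 in 2111 bases, more than 73.2% of those genes, and Csf1r held 2 in 654 bases, more than 52.2%. Per kb, the density was 28.4 in Csf2, 8.97 in Csf3, 1.89 in Csf1 and 3.06 in Csf1r. The median over the same 11270 genes was 1.25 per kb. Csf2ra, Csf2rb, Csf2rb2 and Csf3r held none, while 67.2% of these 11270 genes had at least 1. The 30-base windows with the most copies show how the pentamers overlap in Csf2, stand side by side in Csf3 and lie far from the stop codon in Csf1 (GRCm38, 5′ to 3′ on the gene's strand, each ATTTA in capitals):
Csf2, chr11:54247324-54247353, minus strand: aaatATTTATTTATTTATTTATTTAttttt
Csf3, chr11:98702988-98703017, plus strand: gtttATTTAtctctATTTAatATTTAtgca
Csf1, chr3:107741102-107741131, minus strand: aaggtcATTTAaatatctATTTAaaaaata
The windows begin 235, 28 and 2028 bases after the stop codon in Csf2, Csf3 and Csf1. A match is a description of the letters, and mRNA stability was not measured in these libraries.

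Csf3, the G-CSF gene (chr11:98701263-98703629, plus strand, GRCm38), showed the widest range of the 8 genes. Its normalized read counts were 2.57, 1.9, 13.9, 120, 508, 946, 2571 and 9634 in the 8 libraries in order of time, from 3, 2, 17, 106, 570, 672, 2025 and 11887 reads. The gene was close to undetected up to 15 min and was higher in each later library than in the one before. Against the 3 reads at 0 min the ratio was 5.42 at 30 min (1.57 to 28.9), 198 at 60 min (67.3 to 962) and 3754 at 120 min (1284 to 18205), where the breadth of the intervals comes from those 3 reads. Csf3 was called higher at every time from 30 min on. At 30 min the unadjusted p was 0.0075, but the adjusted p of the exact negative binomial test (edgeR) over all genes was 0.98, so that call ends under adjustment. From 45 min it held, with adjusted p of 1.1e-13 in this test at 45 min and 5.2e-74 at 120 min.

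Comparing each library with the one before gives ratios that do not rest on the 3 reads. The normalized count of Csf3 grew 8.6-fold between 30 and 45 min (5.13 to 15.3) and 4.24-fold between 45 and 60 min (3.44 to 5.27). It then grew 1.86-fold between 60 and 75 min (1.67 to 2.09), 2.72-fold between 75 and 90 min (2.49 to 2.97) and 3.75-fold over the last 30 min (3.57 to 3.93). Growth was therefore uneven, with the smallest of these steps into the 75 min library, the one with the largest share of Rn45s; its part in that step was not tested. There was no plateau within the 120 min.

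Csf2, the GM-CSF gene (chr11:54247271-54249667, minus strand, GRCm38), had a lower level than Csf3, and its first reads came later. With 17 Csf3 reads at 30 min, a later start of Csf2 cannot be told apart from its lower level. It had no read at 0, 15 and 30 min, then 2, 5, 12, 42 and 241 reads at 45, 60, 75, 90 and 120 min, or 2.26, 4.45, 16.9, 53.3 and 195 normalized read counts. The first reads were seen at 45 min, and each later library held more. Since the 0 min library held none, ratios are bounds against 3 reads in that library: at least 6.58-fold higher at 75 min, 20.8-fold at 90 min and 76.1-fold at 120 min. Csf2 was called higher from 75 min on, with adjusted p of 0.027, 5.4e-07 and 1.6e-16 at 75, 90 and 120 min in the exact negative binomial test with Benjamini-Hochberg adjustment. At 60 min it was not called (p = 0.079 by the same exact test), and at 15 and 30 min it could not be tested.

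The steps of Csf2 were 3.8-fold from 60 to 75 min (1.24 to 13.8), 3.16-fold from 75 to 90 min (1.63 to 6.58) and 3.66-fold from 90 to 120 min (2.63 to 5.21). Each of these intervals contained the corresponding step of Csf3. Within a library the scale of that library cancels. Csf3 had 53 reads per Csf2 read at 45 min (14.3 to 443) and 114 at 60 min (48.6 to 352), from 2 and 5 Csf2 reads. It had 56 at 75 min, 48.2 at 90 min and 49.3 at 120 min (43.4 to 56.3). Per length, the level of Csf3 was 27 times that of Csf2 at 120 min. From 75 min the ratio of the pair moved little, although both levels grew.

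Csf1, the M-CSF gene (chr3:107741048-107760469, minus strand, GRCm38), was the only ligand with a clear level at 0 min. Its normalized read counts were 64.2, 47.6, 71.2, 67.8, 105, 120, 109 and 200 in the 8 libraries in order of time, from 50 to 247 reads per library. The libraries up to 45 min lay below those from 60 to 90 min, and the 120 min library stood above them all. The ratio to 0 min was 1.64 at 60 min (1.22 to 2.22), 1.87 at 75 min (1.35 to 2.58) and 1.7 at 90 min (1.23 to 2.35), none of them called in the test, and 3.12 at 120 min (2.4 to 4.1). At 120 min Csf1 was called higher, with a log2 ratio of 1.63, an unadjusted p of 0.00024 and an adjusted p of 0.0053 in edgeR's exact test. Over all settings tried the adjusted p of this test ran from 0.0041 to 0.25, highest with edgeR's trended dispersion. The largest late step was 1.83-fold from 90 to 120 min (1.43 to 2.37). Leaving out the 120 min library brought a call for Csf1 at 75 min, which made 3 members called higher there.

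**Figure D2:**
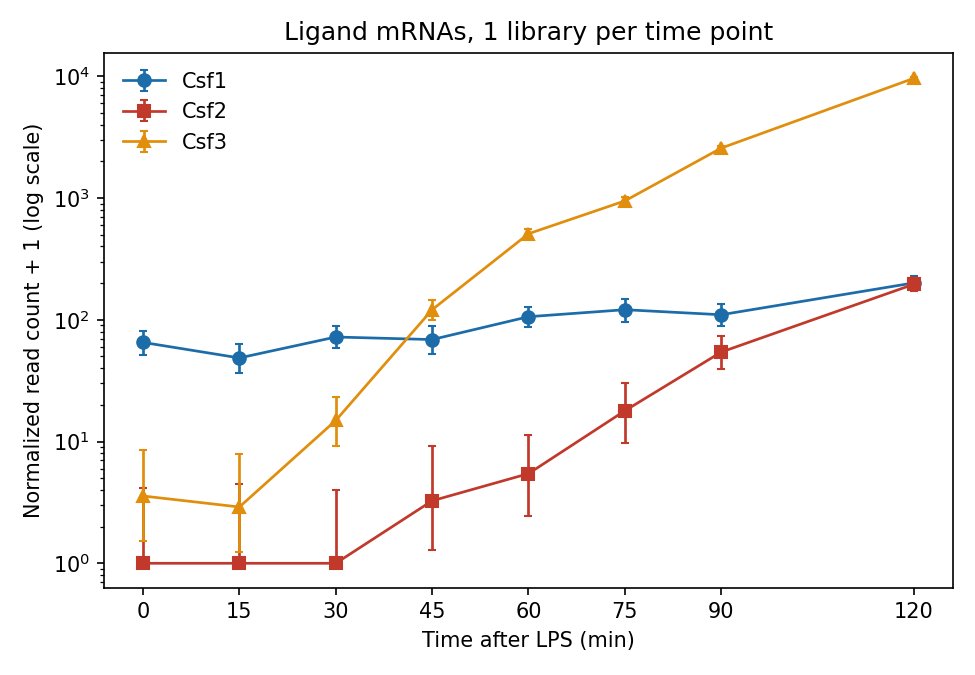
Normalized read counts plus 1 of Csf1 (circles), Csf2 (squares) and Csf3 (triangles) on a log axis against minutes of LPS, 1 library per point, with 95% counting intervals. Csf3 climbs from 2.57 to 9634 and Csf2 from no read to 195, with Csf1 at 200 in the 120 min library. The counts are not corrected for length. In rpkm, Csf2 stood at 2.04 and Csf1 at 0.351 in that library.

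The 3 ligands thus entered the calls in the order Csf3 at 30 min, Csf2 at 75 min and Csf1 at 120 min. Read counts per ligand differ, so a later first call is not by itself a later change. At 60 min the ratio of Csf2 against 3 reads at 0 min was 1.73 and the ratio of Csf1 was 1.64, both without a call.

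For promoters, the RefSeq table of 300-base windows (GRCm38.p6) held 5 of the 8 members, without Csf3, Csf2rb and Csf1r. Of the motifs searched on both strands, GGGNNTTTC, a form of the kB site bound by NF-kB, was in 1 of the 5, Csf1, and in 4.36% of 32851 windows. The match begins 153 bases upstream of the annotated start of Csf1 and is shown because it is the only match among the members (motif in capitals, read from the other strand):
Csf1 promoter, chr3:107760604-107760633, minus strand: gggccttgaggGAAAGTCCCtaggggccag
The related form GGGNNTTCC (5.82% of windows), GAGATTCC (0.904%), the AP-1 motif TGANTCA (7.81%) and the TATA motif TATAAA (13.6%) had no match in the 5 windows. The Csf2 window sits on a RefSeq start 232 bases upstream of the annotated GENCODE start, so it misses the sequence next to the latter.

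Csf1r, which encodes the M-CSF receptor, had the largest counts of the group. Its normalized read counts were 121904, 125243, 121824, 124036, 115508, 119878, 109000 and 102976 in the 8 libraries in order of time. The first 4 libraries lay within a few percent of each other, and the 90 and 120 min libraries were the lowest. The ratio to 0 min was 0.894 at 90 min (0.887 to 0.902) and 0.845 at 120 min (0.838 to 0.851), a log2 ratio of -0.24 with p = 0.48 in the exact negative binomial test. With 85130 or more reads in each library the counting intervals are narrow, and the test rests on the spread between libraries. The log2 ratio at 120 min was -0.45 when libraries were scaled to total counts, also without a call.

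Csf2ra (chr19:61223957-61228429, minus strand, GRCm38), the GM-CSF-specific alpha chain, was the only receptor gene whose value at 120 min lay above that at 0 min. Normalized read counts were 2713, 2814, 2941, 3089, 2937, 3147, 3240 and 3801 in the 8 libraries in order of time. All 7 LPS libraries stood above the 0 min library, and the 120 min library was the highest. The ratio was 1.08 at 60 min (1.03 to 1.14) and 1.4 at 120 min (1.34 to 1.47), a log2 ratio of 0.49, just inside the limit of 0.5, with p = 0.17 in the exact test. Under total counts the log2 ratio at 120 min was 0.28.

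Csf2rb (chr15:78325752-78353847, plus strand, GRCm38), the common beta chain, was the only member called lower. Normalized read counts were 1439, 1482, 1409, 1698, 1312, 1242, 1074 and 823 in the 8 libraries in order of time. The value was highest at 45 min, in a library with 16.6% of its counts on Rn45s, and each library after that was below the one before. The ratio to 0 min was 0.911 at 60 min (0.849 to 0.978), 0.746 at 90 min (0.686 to 0.811) and 0.572 at 120 min (0.529 to 0.619), a log2 ratio of -0.80. The call at 120 min was close to its limit: the unadjusted p of the exact test was 0.025, the adjusted p was 0.21, and with edgeR's trended dispersion the unadjusted p was 0.083, which ends the call. It also ends with adjusted p-values and with a log2 limit of 1. With the 0, 30, 60 and 120 min libraries alone, those with the lower share of Rn45s, Csf2rb was called lower as well. That call was just under the limit, with an unadjusted p of 0.048 and an adjusted p of 0.41 in the exact test.

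Csf2rb2 (chr15:78282507-78305721, minus strand, GRCm38), the interleukin 3 beta chain, had 139, 160, 147, 173, 134, 123, 157 and 113 normalized read counts in the 8 libraries in order of time, from 87 to 179 reads per library. The values showed no order in time, and the 120 min library was the lowest. Its ratio to 0 min of 0.808 at 120 min (0.64 to 1.02) included 1. Csf3r (chr4:126024550-126044440, plus strand, GRCm38), the G-CSF receptor, had 416, 455, 412, 501, 420, 460, 449 and 331 normalized read counts at the same times. The 120 min library lay below the other 7, with a ratio of 0.797 to 0 min (0.697 to 0.911) and 0.738 to 90 min (0.638 to 0.853), but the test against 0 min made no call (log2 ratio -0.33, exact p = 0.39).

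**Figure D3:**
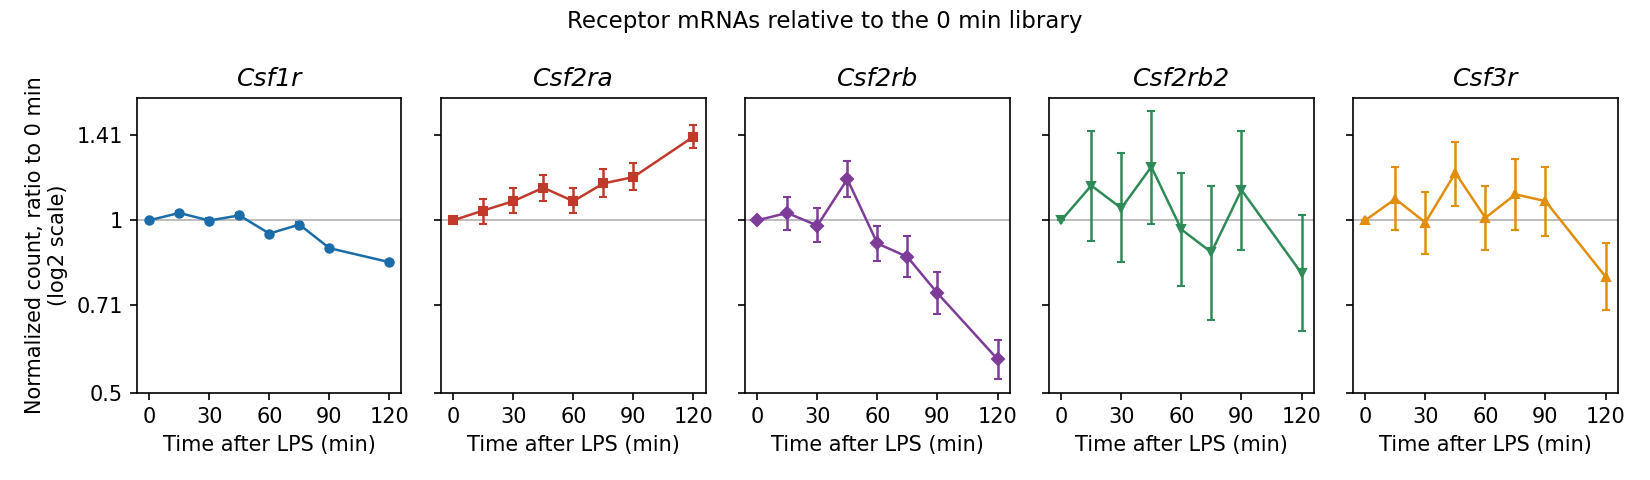
Ratio of the normalized read count to the 0 min library for Csf1r, Csf2ra, Csf2rb, Csf2rb2 and Csf3r on a log2 axis, with 95% counting intervals and the 0 min library set at 1. At 120 min Csf2ra stood at 1.4 and Csf2rb at 0.572, with the other 3 between 0.797 and 0.845.

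The 2 chains of the GM-CSF receptor thus diverged, and their ratio within a library does not depend on any scaling. There were 1.89 Csf2ra reads per Csf2rb read in the 0 min library (1.78 to 2), and 1.9, 2.09, 1.82, 2.24, 2.53 and 3.02 in the next 6 libraries in order of time. The 120 min library held 4.62 (4.31 to 4.94). The ratio lay near its starting value up to 45 min and was higher in each library after that, also among the 0, 30, 60 and 120 min libraries alone. Between 0 and 120 min it changed 2.45-fold (2.24 to 2.68, Fisher's exact interval, counting error only). Per length, the alpha chain stood 4.17-fold above the common beta chain at 0 min and 10.2-fold above it at 120 min. This is a change of unequal size in the pair; it does not show that either mRNA stayed constant, and the difference between chains has no replicate check.

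The other receptors moved less against each other. Csf1r reads per Csf2ra read went from 44.9 to 27.1 and Csf1r reads per Csf2rb read from 84.7 to 125, while Csf1r reads per Csf3r read were 293 at 0 min and 311 at 120 min. The last of these ratios changed 1.06-fold (0.927 to 1.21), an interval that includes 1.

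Csf2rb and Csf2rb2 are neighbouring paralogues, and part of their sequence cannot be told apart by a read. Of the 4707 distinct 58-base words in the Csf2rb transcript, 84.24% were found in no other gene, and 742 were shared with Csf2rb2; for Csf2rb2 84.07% were unique. Their coding sequences were identical at 95.2% of 2631 aligned bases, and the median 58-base window held 2 differences. A 30-base stretch shows how close the pair can be (GRCm38, 5′ to 3′ on each gene's strand, the differing base in capitals):
Csf2rb, chr15:78340518-78340547, plus strand: cttggggatGcccaggtctcctggctttca
Csf2rb2, chr15:78292762-78292791, minus strand: cttggggatTcccaggtctcctggctttca
Reads that matched both genes had been discarded before deposit, so both counts come from the sequence unique to each, and a read with errors at the differing bases could still fall to the wrong gene. Csf2rb had 10.3 reads per Csf2rb2 read at 0 min (8.78 to 12.2), 9.27 to 10.1 at 15 to 75 min, 6.82 at 90 min and 7.31 at 120 min (6.12 to 8.79). Between 0 and 120 min this ratio changed 0.708-fold (0.554 to 0.907, Fisher's exact interval). The counts of Csf2rb2 are reported as uncertain for this reason.

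**Figure D4:**
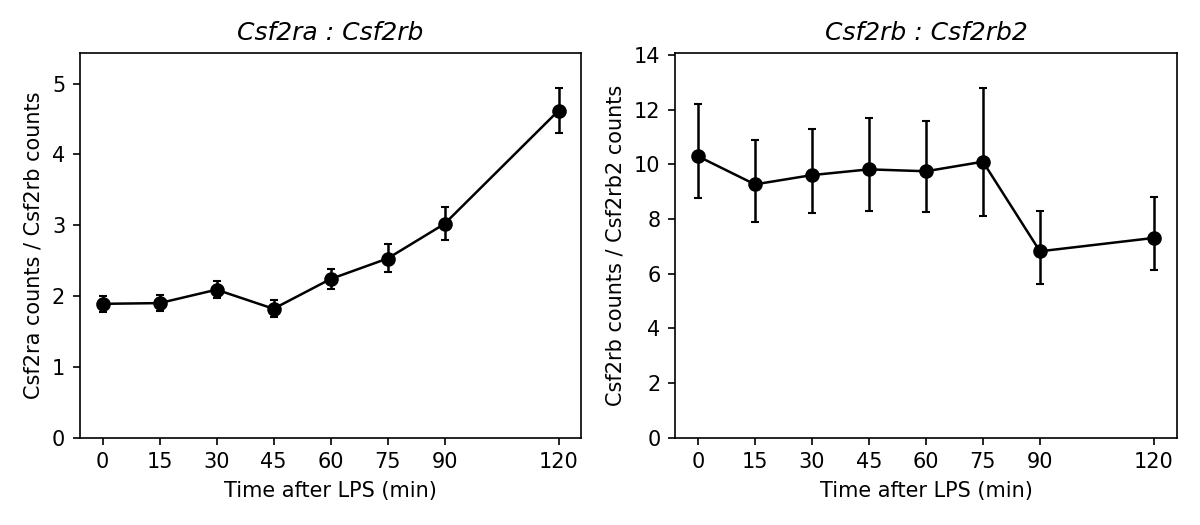
Reads of Csf2ra per read of Csf2rb (left) and of Csf2rb per read of Csf2rb2 (right) in each library against minutes of LPS, with 95% counting intervals and axes that start at 0. The left ratio goes from 1.89 at 0 min to 4.62 at 120 min, the right one from 10.3 to 7.31.

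Set against all genes, the calls of the 8 members were as follows. At 15 min no member was called among 7 tested, where 0.288% of 15274 genes were called higher and 0.164% lower; the ratio of Csf3 rested on 2 and 3 reads. At 30 min Csf3 was called higher (1 of 7 tested; 1.18% of all genes higher, 0.202% lower), and at 45 min Csf3 again (1 of 8; 3.83% higher, 1.54% lower). At 60 min the only call was Csf3 (1 of 8; 3.41% of all genes higher, 2.36% lower).

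At 75 min Csf2 and Csf3 were called higher (2 of 8; 5.03% of all genes higher, 3.72% lower), and at 90 min the same 2 genes (5.9% higher, 4.6% lower). At 120 min all 3 ligands were called higher and 1 of the 5 receptor genes lower, against 7.67% of 15665 genes called higher and 6.7% called lower. With adjusted p-values the 3 ligands stayed called and Csf2rb did not, against 3.86% of all genes higher and 3.1% lower. A different scaling moves the balance of all calls: total counts in place of size factors lower the ratio of normalized counts at 120 min by 0.20 on the log2 scale, less where a gene has few reads because of the added 0.5, and 35.4% of calls over all genes were then higher in place of 53.4%. The 4 calls among the members at 120 min were made under each scaling.

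The genes around the receptors were described by lists, all chosen with earlier results of these data known, so their counts are descriptions. Other ligands and chains that use the same receptors were nearly silent. Il3, Il5 and Il3ra had no read at 0, 60 and 120 min, Il34, the other ligand of the M-CSF receptor, had 1 read at 0 min and none at 120 min, and Il5ra had 20 and 24. Of the 5 genes, 2 could be tested at each time, Il34 and Il5ra, and neither was called. Of all genes, 3.41% were called higher and 2.36% lower at 60 min. At 120 min these shares were 7.67% and 6.7%.

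Of 13 genes of receptor-proximal signalling, none was called at 60 min (3.41% of all genes higher, 2.36% lower). Their median log2 ratio at 120 min was -0.02 (0 over all genes). At 120 min 1 was called higher and 1 lower (7.67% of all genes higher, 6.7% lower). The first was Jak2, the kinase that the beta chain and the G-CSF receptor use, with normalized counts of 3480 and 6598 at 0 and 120 min (log2 ratio 0.92; exact p = 0.0088, adjusted 0.1). The other was Pik3r1, a regulatory subunit of PI3 kinase, with 9145 and 4666 (log2 ratio -0.97; exact p = 0.0058, adjusted 0.074). Stat5a and Stat5b, the main transcription factors downstream of GM-CSF, had log2 ratios of -0.38 and -0.42 without a call.

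Of 10 genes listed as negative regulators or as a protease that sheds a receptor, 5 were called higher and 1 lower at 120 min (7.67% of all genes higher, 6.7% lower). Their median log2 ratio was 0.52 (0 over all genes). Cish, an inhibitor of STAT5 signalling, went from no read at 0 min to 98 at 60 min and 1281 at 120 min. Against 3 reads at 0 min, its ratio at 120 min was 405, without an interval. Socs3, which binds the G-CSF receptor, went from 1294 to 65652 normalized counts (50.7-fold), and Socs1 from 27.4 to 88.3 (3.23-fold). All 3 were already called at 60 min, and all 3 passed the adjusted threshold at both times in edgeR's exact test (adjusted p at 120 min 9.1e-42, 1.3e-37 and 0.022).

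The remaining calls in that list were Cbl, a ubiquitin ligase for the M-CSF receptor (log2 ratio 0.72), and Adam17, the protease that sheds the M-CSF receptor from the cell surface (35506 and 64201 normalized counts, log2 ratio 0.85). Neither passed adjustment (adjusted p 0.31 and 0.15 in the exact test). Dok1, an adaptor that dampens kinase signalling, was called lower with 5369 and 2224 normalized counts (log2 ratio -1.27, adjusted p 0.0073 in the same exact test).

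All 5 genes listed as STAT targets were called higher at 120 min, 4 of them also at 60 min, with median log2 ratios of 2.97 at 60 min and 2.88 at 120 min (0.01 and 0 over all genes). Of all genes, 3.41% were called higher at 60 min and 7.67% at 120 min. Pim1, a kinase gene, went from 492 to 15597 normalized counts and Myc from 287 to 7443. Osm, encoding oncostatin M, had 353, 2778 and 2603 at 0, 60 and 120 min. The survival genes Mcl1 and Bcl2l1 had 3.31- and 2.25-fold higher counts at 120 min. At 60 min Bcl2l1 lay below its 0 min value, with 4073 against 5893 normalized counts (log2 ratio -0.53), without a call. LPS acts on these genes by other routes as well, and whether secreted CSF reached the receptors was not measured.

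Of 8 transcription factors of the myeloid lineage, 2 were called higher and 3 lower at 120 min (7.67% of all genes higher, 6.7% lower). The median log2 ratio of the list was 0.3 (0 over all genes), but it includes Myb. Myb had no read at 0 min and 1 read at 120 min, and its log2 ratio of 1.39 comes from the pseudocount. Without Myb the middle value is that of Runx1 (log2 ratio -0.06), so the median shows no upward shift of the list. Ets2 went from 1303 to 13471 normalized counts (log2 ratio 3.37, adjusted p 2.2e-16 in the exact test) and Cebpb from 14701 to 25580 (0.80, adjusted p 0.2). Fli1 was lower with 13428 and 5439 (log2 ratio -1.30, adjusted p 0.0051), Irf8 with 10969 and 6098 (-0.85, adjusted p 0.15) and Cebpa, known for its role in Csf3r expression, with 5568 and 3309 (-0.75, adjusted p 0.26). Spi1, listed as Sfpi1 and known to drive Csf1r and Csf2ra, had a log2 ratio of 0.65 (exact p = 0.061) without a call.

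Of 6 genes for proteins that bind AU-rich elements such as those shown for Csf2 and Csf3, 2 were called higher and 1 lower at 60 min (3.41% of all genes higher, 2.36% lower), and 1 higher and 1 lower at 120 min (7.67% and 6.7%). The median log2 ratio was 0.27 at 60 min and 0.42 at 120 min (0.01 and 0 over all genes). Zfp36 (tristetraprolin, which promotes the decay of such mRNAs) had 3172, 21936 and 15868 normalized counts at 0, 60 and 120 min. Zfp36l2 had 8824, 5189 and 2252, called lower both times, and Zfp36l1 was called higher at 60 min (log2 ratio 0.75). The 60 min calls of Zfp36l2 and Zfp36l1 end under adjustment (adjusted p 0.6 and 0.69 in edgeR's exact test), while that of Zfp36l2 at 120 min passed it (adjusted p 2.7e-06 in the same exact test). Elavl1, Khsrp and Hnrnpd had log2 ratios of 0.37, 0.48 and 0.61 at 120 min without a call.

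**Figure D5:**
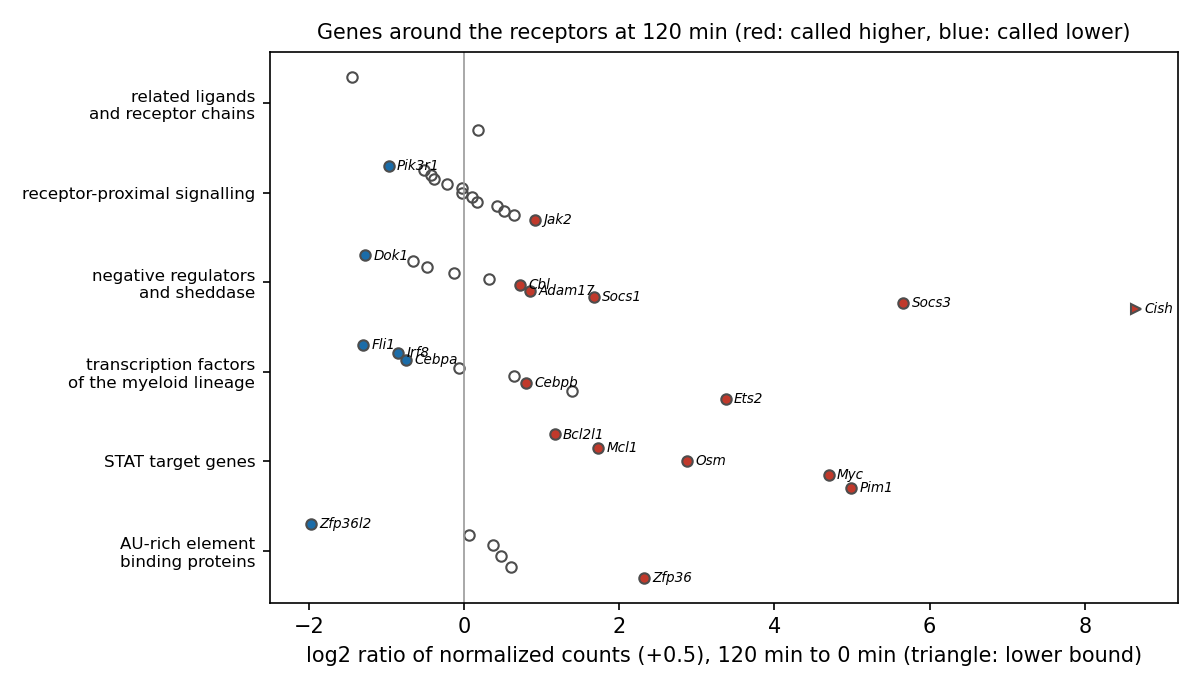
Log2 ratio of normalized counts (0.5 added) between the 120 and 0 min libraries for each tested gene of the 6 lists, with red for genes called higher, blue for genes called lower and open circles for no call. All 5 STAT target genes are red, between 1.17 and 4.99, and the triangle for Cish marks its ratio against 3 reads at 0 min. Receptor-proximal signalling lies mostly near 0 with Jak2 at 0.92 and Pik3r1 at -0.97.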

How the data were processed

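RNA from 8 libraries, 1 per time point, had been sequenced by the authors, who deposited raw read counts per gene symbol for 23143 genes. Per the study's methods, ribosomal RNA was removed and 58-base reads were mapped with Bowtie (version not given in the sources used here) to RefSeq transcripts, and a read that fitted several gene symbols was dropped. The submitters' processing notes name CASAVA 1.8.2, DESeq 1.10.1 and the mm10 (GRCm38) build. No sample column was left unused and every row named a gene.

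Size factors were medians of ratios. Following the methods, the dispersion was a parametric relation to the mean (0.0287 + 0.853/mean) over all 8 libraries treated as replicates, and each LPS library was compared with 0 min by edgeR's exact test (edgeR 4.0.16, R 4.3.3), since a quasi-likelihood fit has no residual degrees of freedom here. Genes with at least 1 count in the pair were tested, and adjusted p-values are Benjamini-Hochberg values over them. Log2 ratios use a pseudocount of 0.5 normalized counts. Intervals are 95% exact (Poisson for levels, binomial for ratios), and a count of 0 is taken to allow 3 counts; both cover counting error only, and reads without molecular identifiers are not independent molecules. The code was tested on simulated data.

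Unique 58-base words were counted over GENCODE vM21 transcripts, which may differ from the authors' transcript set. Promoters came from RefSeq. The genes named are the 8 members, list genes called in a described comparison, some uncalled list genes and cell type markers named after their values were seen, Rn45s, and the 3 genes of nearest pattern per member. Members and lists were chosen with earlier results of these data known. Alternatives were other scalings, other dispersions (with DESeq2 1.42.0), leaving out libraries, adjusted p-values, a log2 limit of 1, a minimum mean of 10 and a pseudocount of 1.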

Additional observations from a re-analysis of the deposited data

How the results depend on the processing

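No alternative turned the direction of a call. The number of members called lower at 120 min fell from 1 to 0 with edgeR's trended dispersion, with adjusted p-values and with a log2 limit of 1, and the number called higher at 30 min fell from 1 to 0 with adjusted p-values. Leaving out the 15, 30, 45, 60, 75 or 90 min library left 3 called higher and 1 lower at 120 min, and leaving out 1 library gave 2 to 3 called higher at 75 min; the third was Csf1, without the 120 min library. Of the log2 ratios recomputed at 60 and 120 min, 13 moved out of their counting interval, those of Csf1r, Csf2ra, Csf2rb and Csf3r under other scalings. The other 163 did not, but they include all values of Csf2, which has no such interval and so could not move. With a pseudocount of 1, Csf2 went from 3.31 to 2.45 at 60 min and from 8.61 to 7.62 at 120 min. At 120 min total counts gave -0.45 for Csf1r, 0.28 for Csf2ra, -1.01 for Csf2rb and -0.53 for Csf3r. Total counts lowered the ratios of normalized counts, before the pseudocount, by 0.19, 0.33, 0.26 and 0.20 on the log2 scale at 45, 75, 90 and 120 min, and leaving out Rn45s by 0.19 at 120 min; for Csf2, with no read at 0 min, the log2 ratio at 120 min went from 8.61 to 8.56 and 8.51. The percentage of all calls that were higher went from 57.5% to 24.4% at 75 min with total counts. Over all genes at 120 min, 1202 higher and 1050 lower calls became 687 and 1254 with total counts, 758 and 1441 without Rn45s, 605 and 486 with adjusted p-values, 766 and 652 with a log2 limit of 1, and 968 and 706 with edgeR's trended dispersion. At 0 min 9 recomputed rpkm values stayed within their counting interval and 7 did not, among them 2.69 for Csf2rb by full transcript length. No paired analysis was possible because each time point has 1 library. Depth limits Csf2 and Csf3 up to 30 min and the intervals of Csf2rb2.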

Other observations

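The genes whose log2 time course was most like that of each member, among 10494 genes with a mean of at least 100 normalized counts over the 8 libraries, are given as a description without a test, since all genes share the same libraries. For Csf3 they were Irg1 and Ehd1 (Pearson's r = 0.999 each) and Stx11 (0.997). For Csf1r they were Ttc7 (0.994), Rnf157 (0.984) and Mcm2 (0.983), for Csf2ra Zfat (0.991), Cstf1 (0.990) and Myo10 (0.988), and for Csf2rb Afap1l1 (0.996), Iqsec2 (0.995) and Git2 (0.990). For Csf2rb2 they were Gnpnat1 (0.951), Gm10069 (0.935) and Fam76a (0.919), and for Csf3r Prune2 (0.968), Slc16a7 (0.967) and Klhl15 (0.958). Csf1 and Csf2, with means of 98.1 and 34.0 normalized counts, were below the minimum. Pearson's r does not reflect the size of a change. At 120 min the ratio to 0 min was 191 for Irg1, 7.82 for Ehd1 and 18 for Stx11, against 3754 for Csf3.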
